A study of Drosophila melanogaster with 12 samples.

Results

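Dosage compensation and sex determination were followed through 10 genes: the noncoding RNAs lncRNA:roX1 and lncRNA:roX2, the protein genes msl-1, msl-2, msl-3, mle and mof, and the sex determination genes Sxl, tra and dsx. They were chosen by name, as 10 of the 17510 genes in the count files, with earlier results of these data known but by no rule on their values. Polyadenylated RNA from dissected Drosophila melanogaster larval central nervous systems (CNSs) was sequenced to ask how loss of the insulator protein CTCF, or of its partner Cp190, changes gene expression. The CTCF0 libraries came from larvae of the third instar that lacked both zygotic and maternally supplied CTCF. The libraries labelled Cp190KO came from larvae of the third instar with knock-out alleles in which a DsRed marker replaces the Cp190 open reading frame, and maternally supplied Cp190 may persist in such animals. Each mutant had its own wildtype (WT) control of the w1118 strain, and all larvae were raised at 25 °C. Every group held 3 libraries, and every library pooled 60 CNSs from larvae that were not separated by sex.

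In flies, males carry a single X chromosome and raise its transcription to match the pair in females. The MSL complex does this in males by coating the X, where the protein subunits assemble on roX1 and roX2 RNA and the acetyltransferase mof modifies histone H4. Females make active Sxl protein, which blocks msl-2 translation and directs tra splicing toward an active form, and tra in turn sets the female form of dsx. The roX RNAs are male products, so their level in a mixed pool depends on the share of males as well as on the level in each male. Each value below is a count per gene, so the sex-specific splice forms of Sxl, tra, dsx and msl-2 were not resolved.

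Counted reads per library ranged from 12638505 to 15650376 in CTCF0 and from 11652548 to 17935428 in its WT, and from 16678885 to 21522453 in the libraries labelled Cp190KO and from 16126996 to 20410398 in their WT. CTCF, the gene deleted in CTCF0, had 2.16 ± 0.53 counts per 1000000 counted reads (CPM) in CTCF0 and 39.6 ± 1.32 CPM in WT (SD, n = 3 each). Cp190 had 40.8, 31.1 and 26.1 CPM in the libraries labelled Cp190KO, against 49.4, 26.0 and 40.8 CPM in their WT, so the count over the whole gene, noncoding exons included, did not separate these groups and every direction for them rests on the labels (the comparison of these libraries with their WT is named Cp190KO below). If the labels of this experiment were exchanged, every direction given for Cp190KO would turn, that of roX2 included. Of a pair of genes chosen after their values were seen, SP1029 had log2 fold changes of 1.22 (SE 0.16) in CTCF0 and 1.18 (SE 0.19) for Cp190KO, and CG15478 had −1.12 (SE 0.17) in CTCF0 and −0.93 (SE 0.15) for Cp190KO, all 4 called by edgeR. The library labelled Cp190KO replicate 3 stood apart, with 375 genes at 1 to 3 counts where the other 11 libraries had 1738 to 2199. Summed glial markers (repo, moody, alrm and Gs2, all 4 tested, none called in either comparison) ran from 543 to 710 CPM in CTCF0 and from 312 to 431 CPM in its WT, and from 627 to 1034 CPM in the libraries labelled Cp190KO and from 429 to 550 CPM in their WT (exact permutation test, p = 0.1 each, the smallest that 3 against 3 allows). None of the 4 neuronal (elav, nSyb, brp, Syt1) and 4 neuroblast (dpn, mira, wor, ase) markers was called in either comparison, and all of them passed the filter. Summed neuronal markers ran from 399 to 770 CPM in CTCF0 and from 515 to 698 CPM in its WT. They ran from 213 to 916 CPM in the libraries labelled Cp190KO and from 343 to 540 CPM in their WT. Summed neuroblast markers ran from 339 to 425 CPM in CTCF0, against 405 to 471 CPM in WT. For Cp190KO they ran from 280 to 436 CPM, against 337 to 566 CPM in WT. The groups overlapped in each case, and the part of these markers in the spread of the members was not tested.

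The main difference among the 10 genes was in roX2. It was higher in the libraries labelled Cp190KO than in their WT, by 2.90-fold (95% interval 1.98 to 4.24), while roX1, the other roX RNA, averaged 209.6 ± 147 CPM in those libraries and 214 ± 25.6 CPM in WT (SD, n = 3 each). No member was called in CTCF0. The male-limited subunit gene msl-2 lay above WT by 1.59-fold in CTCF0 and by 1.76-fold in the libraries labelled Cp190KO, short of the threshold in both. The genes msl-3, mle, mof and tra did not pass the test, with fold changes from 0.882 (tra, Cp190KO) to 1.08 (mle, CTCF0), and roX1, msl-1 and Sxl varied more among libraries of 1 mutant group than between groups.

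**Figure D1:**
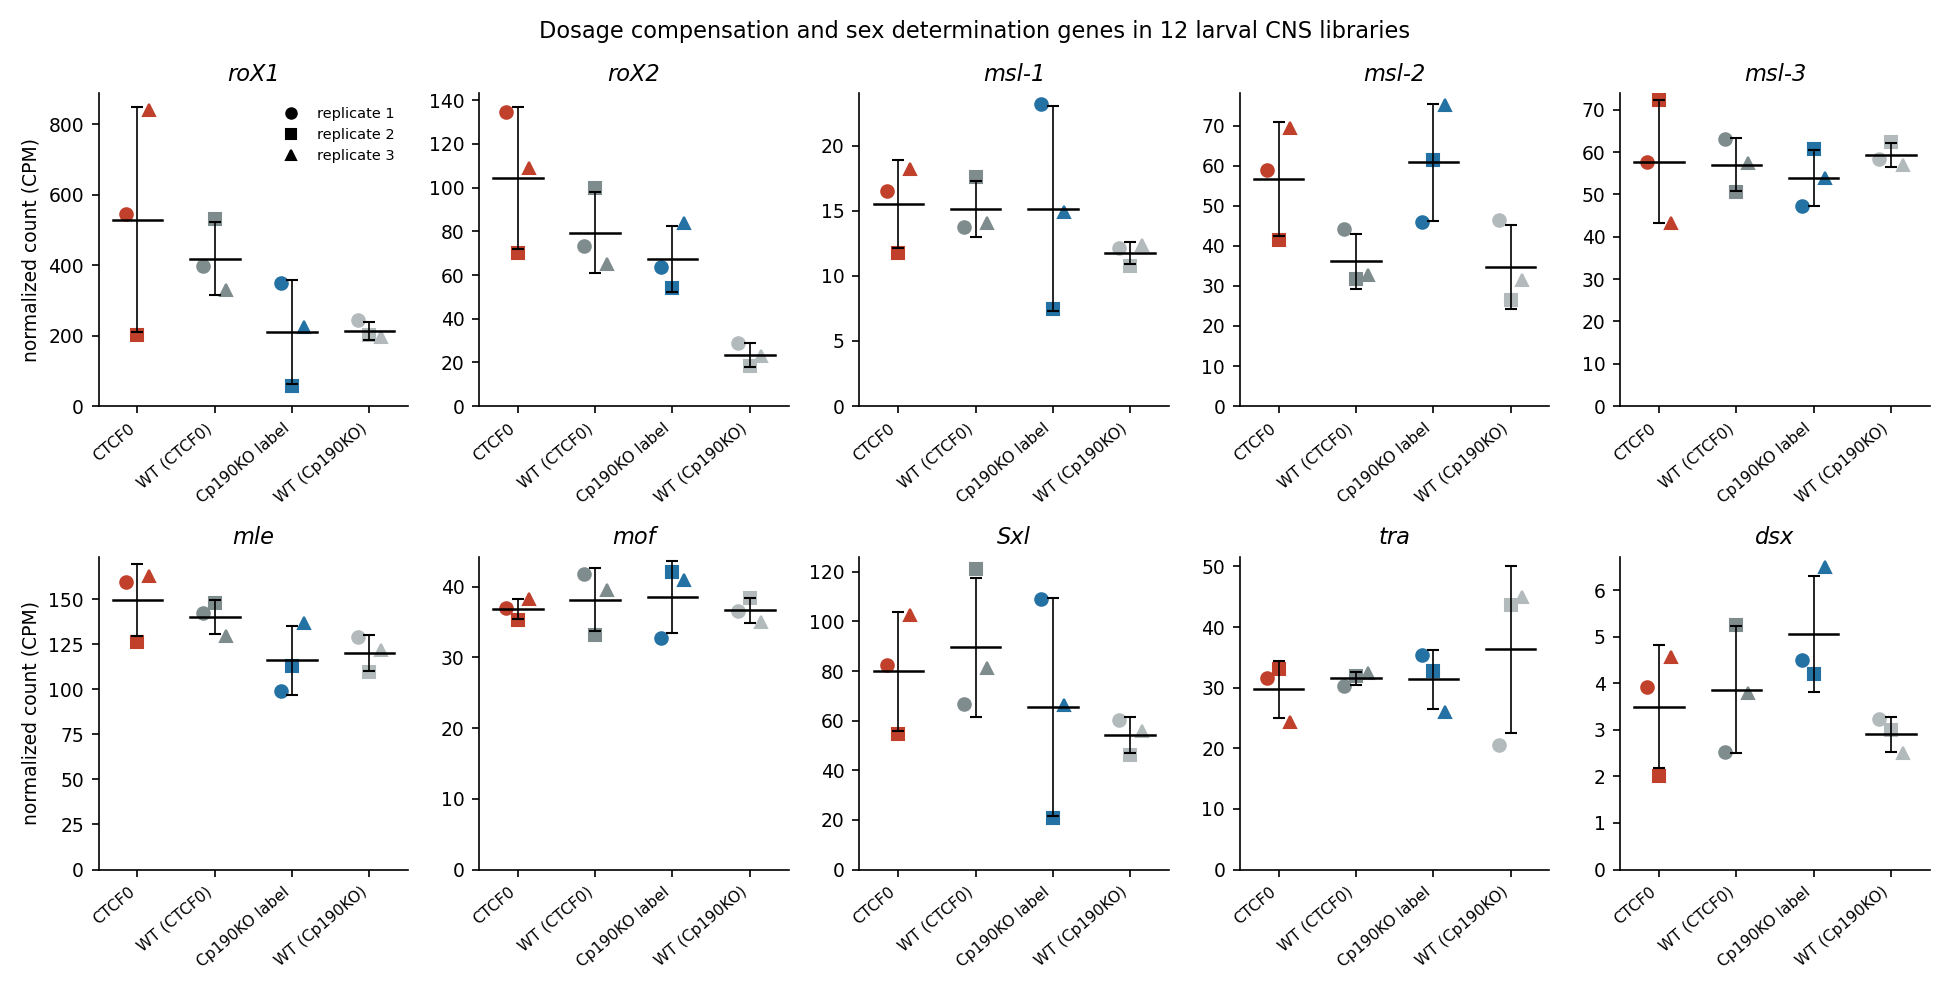
Normalized count (CPM, linear axes from 0) of each of the 10 genes in the 12 libraries, with each mutant to the left of its own WT; point shapes mark replicates, and horizontal lines and bars give the mean and SD of 3 libraries. The 3 libraries labelled Cp190KO sit between 54.0 and 83.8 CPM for roX2, all above the 18.3 to 29.0 CPM of their WT.

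roX2 is the shorter of the pair of roX RNAs, with 1368 exonic bp on chromosome X at 11579065 to 11580432 (dm6, plus strand). It had 63.8, 54.0 and 83.8 CPM in replicates 1, 2 and 3 labelled Cp190KO, against 29.0, 18.3 and 22.9 CPM in WT. The groups did not overlap, and the lowest library labelled Cp190KO lay well above the highest WT library. The log2 fold change was 1.54 (SE 0.24) with an adjusted p of 0.0198 in the edgeR quasi-likelihood test with Benjamini-Hochberg adjustment. A gene was called differentially expressed (DE) when its adjusted p was under 0.05 and its fold change over 1.5, and 207 of 8599 genes tested were DE in this comparison, or 2.41% (119 higher, 1.38%, and 88 lower, 1.02%). Against that background, roX2 was 1 of 10 members called.

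The roX2 call held under all 10 other settings of scaling, filter, test, threshold, block, samples fitted and length adjustment, with adjusted p from 2.1e-06 to 0.0374, but in only 2 of the 6 fits that left out 1 library. The threshold settings, without a fold change limit and with a limit of 2, reused the main fit, so a 2.90-fold change kept its call there by construction. Without Cp190KO replicate 3 the log2 fold change was 1.39 and the edgeR adjusted p was 0.105. Without WT replicate 1, 2 or 3 the log2 fold change was 1.72, 1.37 or 1.52 and the adjusted p was 0.0584, 0.128 or 0.132. The direction and a log2 fold change of at least 1.37 held in every one of these fits. The summed glial markers were also higher in these libraries without overlap, and their part in the roX2 difference was not tested. In pooled tissue, more cells that express a gene and more RNA per cell cannot be told apart.

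No annotated gene overlaps roX2 exons, and its nearest neighbours did not pass the test. CG11695, which ends 259 bp before roX2, had 61.3 ± 13.3 CPM in the libraries labelled Cp190KO and 72.6 ± 9.85 CPM in WT (log2 fold change −0.21, adjusted p = 0.766 by edgeR). The kinesin-like gene nod, which starts 340 bp after it, had 45.8 ± 8.08 CPM in the libraries labelled Cp190KO and 32.2 ± 5.03 CPM in WT (log2 fold change 0.53, adjusted p = 0.294 by edgeR).

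In CTCF0, roX2 had 135, 69.9 and 109 CPM, against 73.4, 100.04 and 64.9 CPM in WT. These groups overlapped, since replicate 2 of CTCF0 lay below WT replicates 1 and 2. The log2 fold change was 0.42 (SE 0.27, 95% interval −0.21 to 1.05), with an edgeR adjusted p of 0.672. The CTCF0 change minus the Cp190KO change was −1.12 for roX2 (SE 0.38, 95% interval −1.94 to −0.31). That difference had an unadjusted p of 0.0103 and an edgeR adjusted p of 0.316 over 8954 genes, so roX2 was not among the 127 genes (1.42%) whose changes differed between the mutants.

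WT levels of roX2 differed between the experiments, at 79.5 ± 18.3 CPM in the WT of CTCF0 and 23.4 ± 5.38 CPM in the WT of Cp190KO (SD, n = 3 each). The libraries labelled Cp190KO, at 67.2 ± 15.2 CPM, thus lay near the WT of the other experiment. The first experiment was sequenced as read pairs and the second as single reads on another instrument, so the experiment and these features cannot be told apart.

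roX1 is the longer roX RNA, with 5468 exonic bp on chromosome X at 3857230 to 3862697 (dm6, minus strand). It had 349, 56.2 and 224 CPM in replicates 1, 2 and 3 labelled Cp190KO, against 244, 203 and 196 CPM in WT. The mutant libraries lay on both sides of WT and spanned 6.21-fold, where WT spanned 1.24-fold. The log2 fold change was −0.00 (SE 0.56), with an edgeR adjusted p of 0.998 and a 95% interval of −1.32 to 1.32, so a change of up to 2.49-fold upward, or down to 0.400 of the WT level, lay within the interval.

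In CTCF0, roX1 had 545, 202 and 839 CPM, against 398, 529.7 and 328 CPM in WT. Replicate 2 was below all WT libraries and replicates 1 and 3 were above them. The log2 fold change was 0.37 (SE 0.45), with an edgeR adjusted p of 0.872, and it turned to −0.15 without CTCF0 replicate 3.

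The ratio of roX1 to roX2 within a library does not depend on the share of males where both RNAs come from the same cells, but it sets a long RNA against a short one and so carries the dependence of level on exonic length described below, which differed between libraries. The ratio was 5.46, 1.04 and 2.67 in the libraries labelled Cp190KO, against 8.40, 11.1 and 8.56 in WT. All 3 mutant values lay below all 3 WT values, with a mean of 3.06 in the libraries labelled Cp190KO and 9.35 in WT (p = 0.1 by an exact permutation test, which 3 against 3 cannot go below). Among the libraries labelled Cp190KO, the order of the ratios was that of their slopes on length. With the slope of each library on length removed, an alternative added after the data were seen, the ratio was 4.25, 1.41 and 2.33 in the libraries labelled Cp190KO, against 7.99, 12.9 and 8.44 in WT, and the groups still did not overlap (exact p = 0.1). In CTCF0 the ratio was 4.05, 2.89 and 7.69, against 5.42, 5.30 and 5.05 in WT, and the CTCF0 values lay on both sides of WT (exact p = 0.9, and 0.4 with the slope removed).

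**Figure D2:**
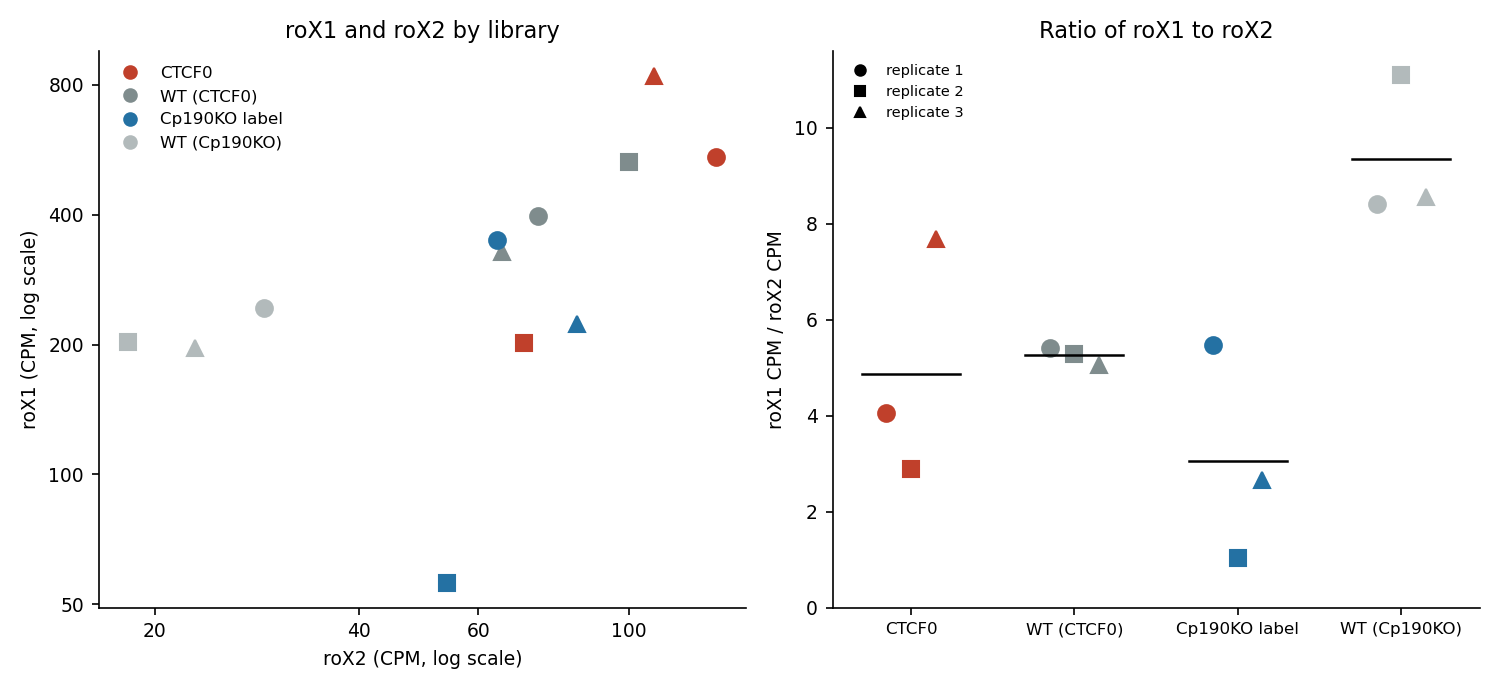
Left, roX1 against roX2 in CPM (both axes logarithmic) in the 12 libraries; right, the ratio of their CPM in each library, with the group mean as a line and point shapes for replicates. The ratio is 1.04 to 5.46 in the libraries labelled Cp190KO and 8.40 to 11.1 in their WT, while CTCF0 and its WT overlap.

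msl-2 encodes the ring finger subunit that limits MSL complex assembly to males, and its RNA is made in both sexes. It had 59.1, 41.5 and 69.5 CPM in CTCF0, against 44.1, 31.6 and 32.7 CPM in WT. It had 46.0, 61.4 and 75.2 CPM in the libraries labelled Cp190KO, against 46.5, 26.5 and 31.4 CPM in their WT. In each comparison the lowest mutant library lay below the highest WT library, and the other mutant libraries lay above all of WT.

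The log2 fold change of msl-2 was 0.67 (SE 0.24) in CTCF0, with an unadjusted p of 0.0226 and an edgeR adjusted p of 0.290. It was 0.82 (SE 0.26) in the libraries labelled Cp190KO, with an unadjusted p of 0.0146 and an edgeR adjusted p of 0.227. Neither was called, and msl-2 became DE only in CTCF0 without replicate 2 (log2 fold change 0.82, adjusted p = 0.0247 by edgeR). The changes in the mutants differed by −0.16 (SE 0.37).

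msl-1 encodes the scaffold that holds the complex together. It had 16.5, 11.8 and 18.2 CPM in CTCF0, against 13.8, 17.6 and 14.0 CPM in WT, and 23.2, 7.42 and 14.9 CPM in the libraries labelled Cp190KO, against 12.1, 10.8 and 12.4 CPM in their WT. The mutant libraries lay on both sides of WT in each case, with log2 fold changes of 0.06 (SE 0.23) and 0.40 (SE 0.40) for CTCF0 and Cp190KO and edgeR adjusted p of 0.966 and 0.758.

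The remaining complex genes did not pass the test in either comparison. msl-3, the chromodomain subunit, ranged over the 12 libraries from 43.3 to 72.4 CPM, with log2 fold changes of 0.03 (SE 0.20) in CTCF0 and −0.11 (SE 0.15) in the libraries labelled Cp190KO. mle, the RNA helicase that remodels roX RNA, ranged from 98.8 to 163 CPM, with log2 fold changes of 0.12 (SE 0.17) in CTCF0 and −0.03 (SE 0.14) for Cp190KO. mof, which also acts in the NSL complex of both sexes, spanned only 1.28-fold over the 12 libraries (32.7 to 42.0 CPM), the narrowest range of the 10 genes. Its log2 fold changes were −0.03 (SE 0.16) in CTCF0 and 0.09 (SE 0.17) for Cp190KO, and the edgeR adjusted p of these 3 genes lay above 0.8 in both comparisons.

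Sxl is the master switch of female development and is also transcribed in males. It had 82.3, 54.8 and 102 CPM in CTCF0, against 66.7, 121 and 81.1 CPM in WT, and the groups overlapped (log2 fold change −0.14, SE 0.30, adjusted p = 0.928 by edgeR). It had 109, 20.9 and 66.4 CPM in the libraries labelled Cp190KO, against 60.1, 46.0 and 56.0 CPM in their WT. The libraries labelled Cp190KO spanned 5.20-fold and their WT 1.31-fold, and the log2 fold change was 0.30 (SE 0.52, adjusted p = 0.840 by edgeR).

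tra, the splicing regulator below Sxl, is the shortest member with 862 exonic bp. It had 31.7, 33.1 and 24.4 CPM in CTCF0, against 30.3, 31.9 and 32.5 CPM in WT, and 35.4, 32.7 and 25.9 CPM in the libraries labelled Cp190KO, against 20.5, 43.6 and 44.9 CPM in their WT. The groups overlapped in each comparison, and the log2 fold changes were −0.07 (SE 0.17) in CTCF0 and −0.18 (SE 0.32) for Cp190KO.

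dsx encodes the transcription factor at the end of the pathway, which shapes sex-specific neurons. It was the lowest of the 10 genes, with 29 to 109 counts per library. It had 4.50, 4.20 and 6.49 CPM in the libraries labelled Cp190KO, against 3.23, 3.0 and 2.50 CPM in their WT, and the groups did not overlap. The log2 fold change was 0.81 (SE 0.30), with an unadjusted p of 0.0260 and an edgeR adjusted p of 0.294, so dsx was not called. In CTCF0 it had 3.91, 2.02 and 4.56 CPM, against 2.53, 5.26 and 3.80 CPM in WT, which overlapped (log2 fold change −0.10, SE 0.39). The difference between the mutants for dsx was −0.93 (SE 0.50, adjusted p = 0.913 by edgeR).

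**Figure D3:**
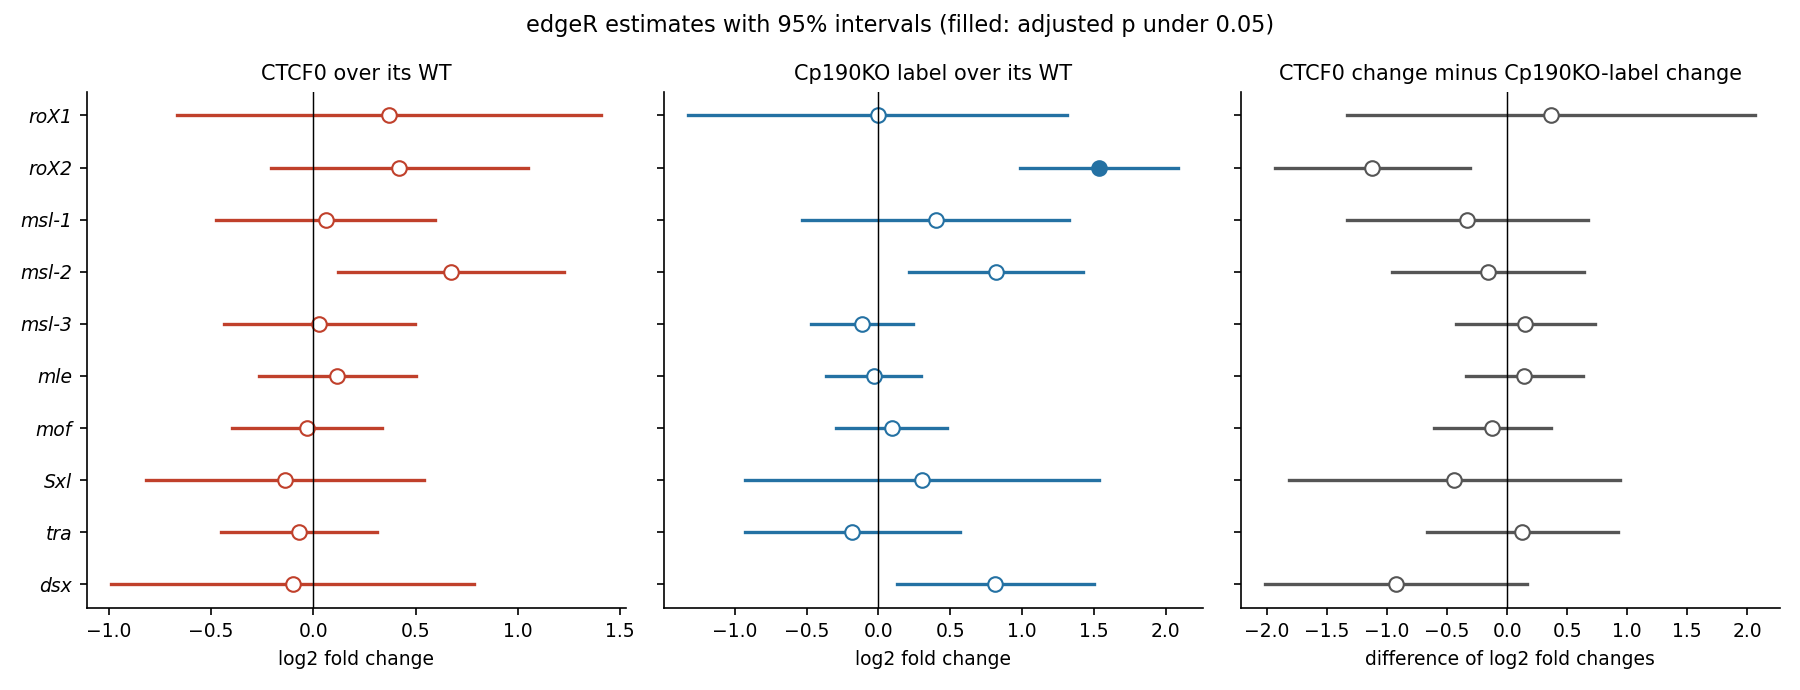
edgeR log2 fold changes of the 10 genes with 95% intervals in CTCF0 over its WT, in the libraries labelled Cp190KO over their WT, and for the CTCF0 change minus the Cp190KO change; filled points have an adjusted p under 0.05. Only roX2 in the libraries labelled Cp190KO, at 1.54, is filled.

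Over the 10 genes, 0 were DE in CTCF0 by edgeR and 0 by DESeq2, where 245 of 8718 genes tested or 2.81% were DE by edgeR (168 higher, 1.93%, and 77 lower, 0.883%). Of the 10, 1 (msl-2) had an unadjusted p under 0.05 and was higher, against 12.1% of all genes in either direction and 7.78% higher. There, 0 members had groups that did not overlap, against 17% of all genes in either direction and 9.34% with all CTCF0 libraries above WT. In the libraries labelled Cp190KO, 3 members (roX2, msl-2 and dsx) had an unadjusted p under 0.05, all of them higher, against 13.1% of all genes in either direction and 7.45% higher. Of the 10, 2 members (roX2 and dsx) had all mutant libraries above WT, against 8.86% of all genes, and none had all below, where 20% of all genes were apart in either direction. For the difference between the mutants, 1 member (roX2) had an unadjusted p under 0.05, against 6.89% of all genes, and 0 were called by edgeR and 0 by DESeq2. The median log2 fold change of the 10 genes was 0.05 in CTCF0 and 0.20 for Cp190KO, beside 0.01 and 0.08 over all genes tested.

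Levels per length put the roX RNAs first and next in 3 of the 4 groups. In CTCF0, roX1 had 96.7 ± 58.3 and roX2 had 76.4 ± 23.8 CPM per kb of exon, which did not differ beyond their spread, followed by tra, mle and msl-3 at 34.5 ± 5.45, 32.2 ± 4.35 and 29.3 ± 7.39 CPM per kb. The order msl-2, mof, Sxl, msl-1 and dsx came after these, from 14.7 ± 3.68 down to 0.38 ± 0.14 CPM per kb. In the libraries labelled Cp190KO, roX2 came first at 49.1 ± 11.1 CPM per kb, with roX1 at 38.3 ± 26.9 and tra at 36.4 ± 5.65 CPM per kb within the spread. In their WT, roX2 was the fifth at 17.1 ± 3.94 CPM per kb, behind tra (42.2 ± 16.0), roX1 (39.2 ± 4.69), msl-3 (30.1 ± 1.45) and mle (25.9 ± 2.15), and msl-1 and dsx were last in all 4 groups.

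roX1, Sxl and msl-1 went up and down together among the libraries. All 3 were lowest in Cp190KO replicate 2 and, within the CTCF0 experiment, in CTCF0 replicate 2. As a likeness of pattern over the 12 libraries, which share depth, base composition and preparation within an experiment, Pearson r of log2 CPM was 0.95 for msl-1 with Sxl, 0.91 for roX1 with Sxl and 0.83 for roX1 with msl-1, the highest of the 45 pairs. These genes are long, with 5468 (roX1), 9192 (Sxl) and 5021 (msl-1) exonic bp, where the median gene had 2217 bp.

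The libraries also differed in how level depended on exonic length over 8414 genes. The slope, in log2 CPM per doubling of length, was 0.06, −0.16 and 0.17 in CTCF0 replicates 1, 2 and 3, against −0.02, 0.02 and −0.06 in WT. It was 0.18, −0.22 and 0.10 in the libraries labelled Cp190KO, against 0.04, −0.11 and 0.01 in their WT. Cp190KO replicate 2 thus had both the lowest slope and the lowest roX1, Sxl and msl-1.

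When each library's curve on exonic length was removed, an alternative added after the data were seen, the SE of Sxl fell to 0.20 for Cp190KO, with a log2 fold change of −0.07 (adjusted p = 0.925 by edgeR). roX1 then had −0.32 (SE 0.39) for Cp190KO and 0.20 (SE 0.32) in CTCF0. roX2 kept a log2 fold change of 1.56 (SE 0.28, adjusted p = 0.0278 by edgeR) in the libraries labelled Cp190KO. msl-2 had 0.58 (SE 0.16) in CTCF0 and 0.73 (SE 0.25) for Cp190KO in that fit, with adjusted p of 0.112 and 0.212 by edgeR.

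**Figure D4:**
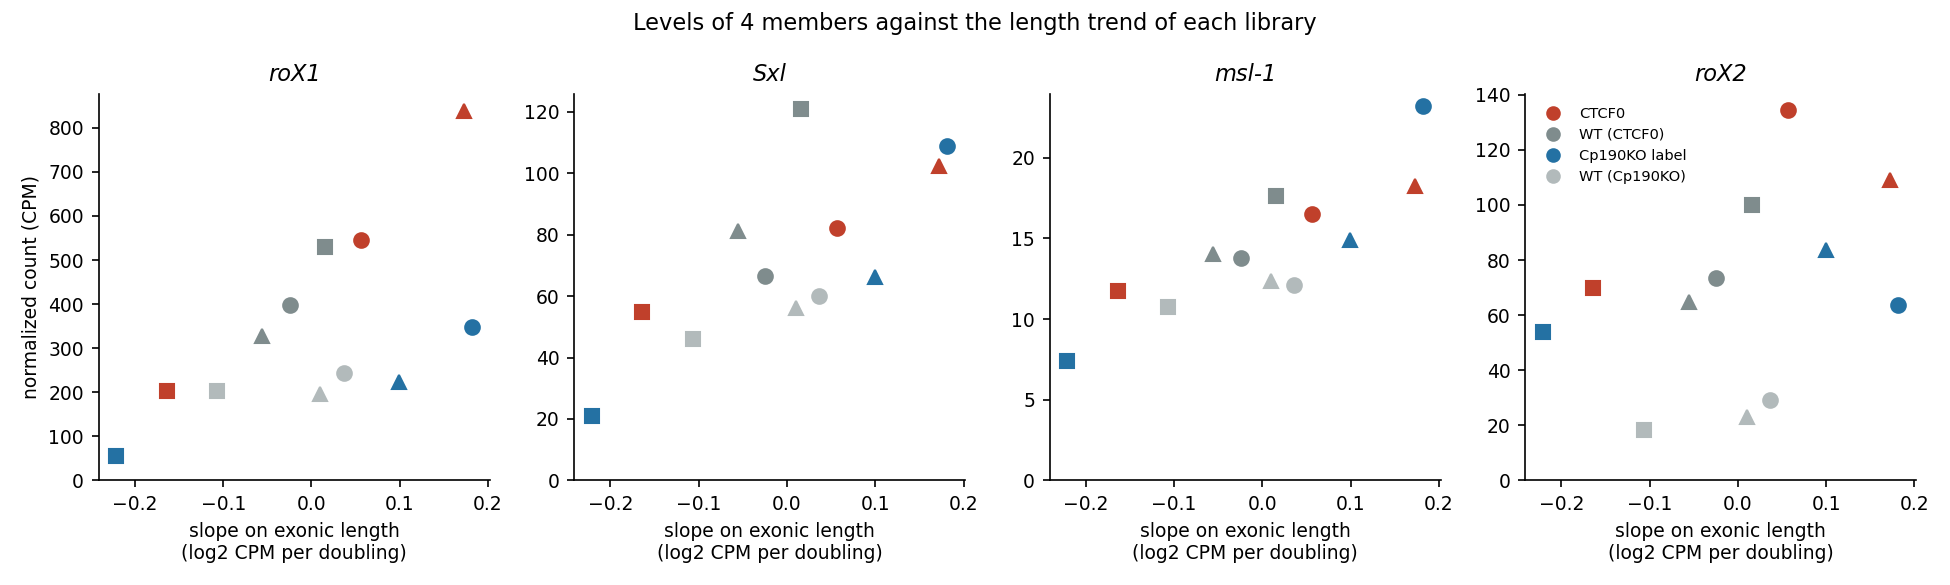
Normalized count (CPM, linear axes from 0) of roX1, Sxl, msl-1 and roX2 against the slope of each library on exonic length (log2 CPM per doubling), with 1 point per library, colours for groups and shapes for replicates as in the plot of levels. The library with the lowest slope, −0.22, has the lowest roX1, Sxl and msl-1, while roX2 in the libraries labelled Cp190KO stays at 54.0 CPM or above at all 3 slopes.

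Genes outside the list with the most similar profile to summed roX1 and roX2 over the 12 libraries were 5-HT1A, kek1, alpha-Man-Ia, CG31635 and Zdhhc8, with Pearson r from 0.97 to 0.98 among 8954 genes. They have 5019 to 9511 exonic bp, and 15.4% of genes exceed the lowest of these lengths. For single members the most similar were Sh for roX1 (r = 0.98), Trp1 for roX2 (0.94), tud for msl-1 (0.98), CG4282 for msl-2 (0.91), PI31 for msl-3 (0.94) and CG11456 for mle (0.95). They were Hrb27C for Sxl (0.996) and Dh31 for dsx (0.88). mof was closest to MBD-R2 (0.84), which encodes a subunit of the NSL complex that also contains mof.

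The sex mix of the pools was read from the roX sum and from Y-linked genes. The level of X-linked genes relative to autosomal genes was set beside them. Males raise their X to match females, so that level cannot give the share of males. Every library contained at least 923 roX1 and 280 roX2 counts, so no pool lacked roX RNA. There was no library of known sex, so none of these readouts gives a percentage of males. The roX sum was 633 ± 340 CPM in CTCF0 and 498 ± 121 CPM in its WT (exact permutation test, two-sided p = 0.6). It was 277 ± 154 CPM in the libraries labelled Cp190KO and 238 ± 30.3 CPM in their WT (exact p = 0.7). The differences were smaller than the spread among mutant libraries, which ran from 272 to 948 CPM in CTCF0 and from 110.1 to 413 CPM for Cp190KO.

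The Y chromosome gave no usable readout. Of 113 Y-linked genes in the files, 94 had no read in any library, and FDY took 99.6% of the 17257 Y-linked reads. FDY is a recent copy of the autosomal gene vig2, so its reads cannot be assigned with certainty. Of the 12 named Y protein genes, among them kl-2, kl-3, kl-5 and ORY, FDY was the only one with reads. The Y sum was 43.3 ± 11.6 CPM in CTCF0 and 44.9 ± 2.37 CPM in WT (exact p = 0.8), and 120 ± 40.6 CPM in the libraries labelled Cp190KO and 124 ± 31.1 CPM in their WT (exact p = 0.9). Without FDY, 3, 2 and 4 counts were left in CTCF0 and 0 in each WT library, and 10, 5 and 29 in the libraries labelled Cp190KO and 2, 1 and 5 in their WT. As CPM, all mutant libraries lay above all of WT in both comparisons (exact permutation test, p = 0.1 each, the smallest that 3 against 3 allows). Reads are few, and a count of 0 in a library allows up to 3, so a difference between groups is not established. The count of 29 is that of Cp190KO replicate 3, the library that stood apart.

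The level of X-linked genes relative to autosomal genes did not differ beyond the spread between libraries. Over 1454 X-linked and 6878 autosomal genes, the median log2(CPM + 1) on the X minus that on the autosomes was 0.21, 0.25 and 0.24 in CTCF0, against 0.25, 0.24 and 0.29 in WT. It was 0.33, 0.26 and 0.31 in the libraries labelled Cp190KO, against 0.30, 0.36 and 0.33 in their WT. The groups overlapped in both comparisons (exact p = 0.3 for CTCF0 and 0.4 for Cp190KO). The X-linked genes tested had a median log2 fold change of −0.04 in CTCF0 (1497 genes) and 0.03 for Cp190KO (1478 genes), and of these 32 were DE in CTCF0 (2.14%, against 2.81% of all genes tested) and 20 for Cp190KO (1.35%, against 2.41%). Median changes on the long autosome arms lay between 0.00 and 0.03 in CTCF0 and between 0.06 and 0.11 for Cp190KO.

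**Figure D5:**
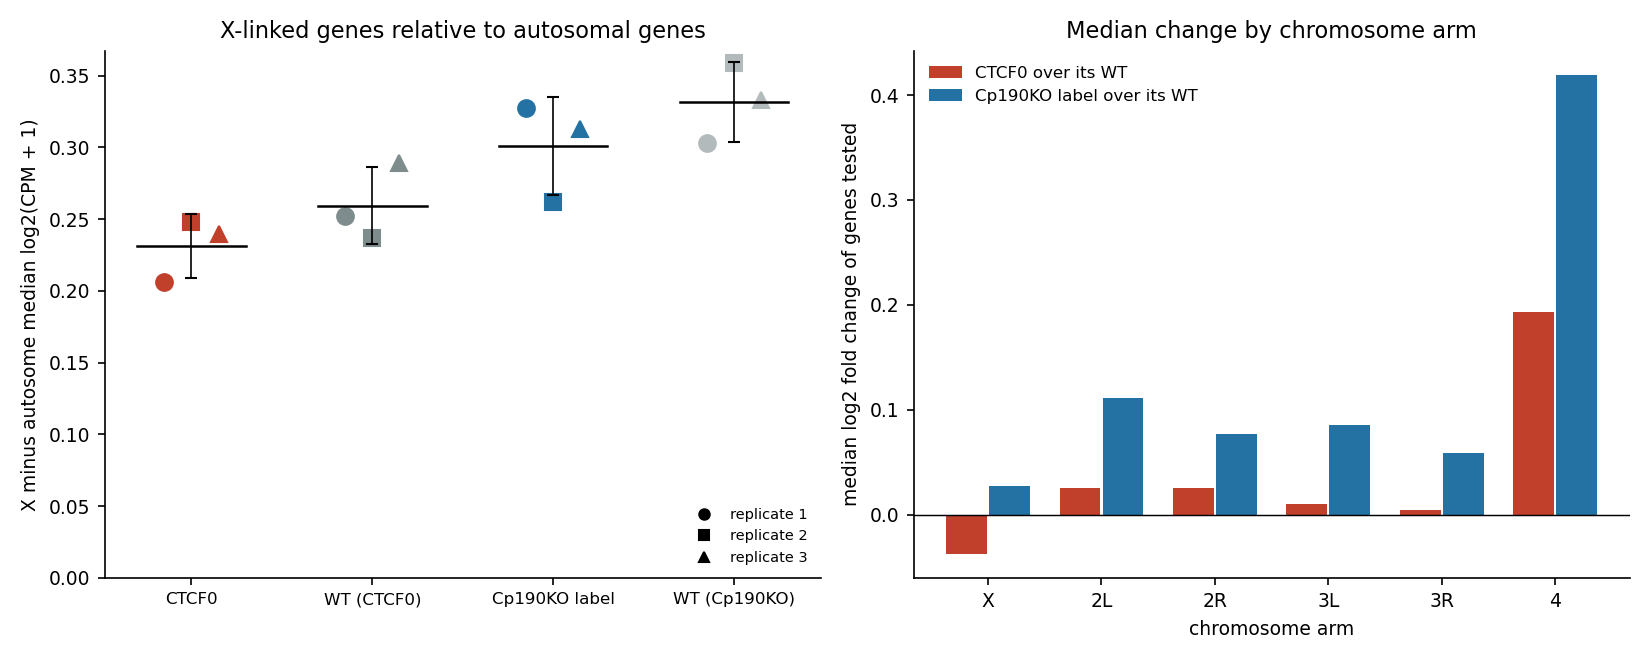
Left, median log2(CPM + 1) of 1454 X-linked genes minus that of 6878 autosomal genes in each library, with group mean and SD; right, median log2 fold change of the genes tested on each chromosome arm in CTCF0 and in the libraries labelled Cp190KO over their WT. The groups overlap for the X, whose median changes are −0.04 and 0.03.

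Relations between these readouts were computed in a family of 12, each over the 12 libraries and within each experiment. Over 12 libraries, the permutations exchanged libraries between experiments that differ in level, as in the WT Y sums of 44.9 and 124 CPM. Those p-values therefore cannot tell a relation among libraries from the offset between experiments. roX1 and roX2 had r = 0.53 and rho = 0.75 over 12 libraries (permutation p = 0.0803 and 0.0069, adjusted 0.207 and 0.0415), and r = 0.73 without the 2 libraries farthest from the median. Within the CTCF0 experiment r was 0.76 and rho was 0.89 (exact p = 0.0667 and 0.0333, adjusted 0.207 and 0.080). Within the Cp190KO experiment r was −0.06 and rho was 0.37 (exact p = 0.938 and 0.497), and r was 0.45 without the 2 farthest libraries. The roX2 offset between mutant and WT enters these values, so they cannot show how the RNAs vary among libraries of a group. On deviations from group means, r of roX1 with roX2 was 0.64 over the 12 libraries. The roX sum and the Y sum had r = −0.71 and rho = −0.76 over 12 libraries (permutation p = 0.0086 and 0.0062, adjusted 0.0583 and 0.0415), and r = −0.71 without the 2 farthest libraries. They ran against each other in the CTCF0 experiment (r = −0.96 and rho = −0.94, exact p = 0.0097 and 0.0167, adjusted 0.0583 and 0.0667) and not in the Cp190KO experiment (r = 0.21 and rho = 0.09, exact p = 0.688 and 0.919). FDY held 99.6% of the Y-linked reads over the 12 libraries, and its reads cannot be assigned with certainty. The Y sum is therefore no usable readout of males in these relations. The roX sum with msl-2 and with X minus autosome gave adjusted p of at least 0.080 in all 6 relations. With X minus autosome, r was −0.52 and rho was −0.64 over 12 libraries (permutation p = 0.0860 and 0.0285). Without the 2 farthest libraries r was −0.78. The sign of r differed between the experiments, at −0.51 for CTCF0 and 0.55 for Cp190KO. With msl-2, r was 0.17 over 12 libraries, and 0.59 and −0.02 within the CTCF0 and Cp190KO experiments.

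Genes that act with the 10 members, in lists of 34, gave 31 tested genes and 0 called by edgeR in either mutant (smallest adjusted p 0.397 in CTCF0 and 0.330 for Cp190KO), with 1 and 2 genes at an unadjusted p under 0.05. Over all genes tested, 2.81% in CTCF0 and 2.41% for Cp190KO were called, and 12.1% and 13.1% had an unadjusted p under 0.05 by edgeR. The dosage compensation partners (Clamp, which binds roX and X-linked entry sites, JIL-1, Unr and how) had a median log2 fold change of 0.05 in CTCF0 and 0.39 for Cp190KO over 4 genes. The 6 NSL complex genes had medians of −0.06 in CTCF0 and 0.07 for Cp190KO. The X signal elements and their counters, which count X chromosomes in the embryo, had medians of 0.00 in CTCF0 and 0.30 for Cp190KO over 8 of 9 genes tested. The 9 Sxl splicing and m6A factors had medians of −0.09 in CTCF0 and −0.08 for Cp190KO. The partners and targets of tra and dsx had medians of −0.17 in CTCF0 and −0.20 for Cp190KO over 4 of 6 genes tested, since the yolk protein genes Yp1 and Yp2 did not pass the filter.

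Several members share exonic sequence with another gene, and the counting mode for overlaps is not given in the sources used here. ec overlaps roX1 by 392 bp on the opposite strand (7.17% of roX1), l(3)73Ah overlaps tra by 74 bp, form3 overlaps msl-3 by 85 bp and lds overlaps dsx by 169 bp. On the same strand, mir-4971 shares 111 bp with msl-2 exons (2.89% of msl-2) and mir-4956 shares 117 bp with Sxl exons (1.27% of Sxl), which counting by strand would not tell apart. None of the 4 genes on the opposite strand was called in either comparison. With opposite strands, reads are told apart only where counting used strand, which is not stated, although the libraries are strand-specific.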

How the data were processed

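The authors sequenced strand-specific poly(A) libraries (paired-end for CTCF0 and its WT, single-end for Cp190KO and its WT), mapped reads to dm6 and FlyBase models with Micmap, and deposited counts per gene from HTSeq 0.9.1. Per library, 22.6% to 34.8% of HTSeq entries were in rows that name no gene, which were left out. The 10 members and all gene lists were chosen with earlier results of these data known. Named were all members, CTCF and Cp190, DE genes of the lists, named Y genes, the genes most like each member (that of tra is not reported here) and the neighbours of DE members.

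A gene entered a comparison when 3 or more of its libraries reached 1 CPM, and was tested with edgeR 4.0.16 (TMM, robust quasi-likelihood test, two-sided, R 4.3.3), Benjamini-Hochberg over all genes tested, each mutant against its own WT. The authors' tool, DESeq2, was run as an alternative in version 1.42.0. The difference between mutants was fitted over 12 libraries. CPM shown are TMM-scaled over 12 libraries. Summed levels, ratios and chromosome medians (pseudocount 1) used exact permutation tests. The methods call the libraries biological replicates. Scripts were tested on simulated data. Alternatives were RLE scaling, no scaling factor, other filters and thresholds, a 12-library fit, a replicate block, each library left out, other pseudocounts and summaries, and, added after the data were seen, length-adjusted offsets, the roX ratio without each library or its length slope, and the Y sum without FDY. Coordinates are from Ensembl's dm6 annotation.

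Marker lists other than those of the CNS were checked: the fat body, hemocyte, disc and salivary gland lists had no called gene. Among muscle markers Mlc2 was called higher in CTCF0 (summed level 42.8 to 49.3 CPM, against 18.6 to 27.3 CPM in WT). Of the germline markers bam was called lower in CTCF0 and vas higher in the libraries labelled Cp190KO, while aly had at most 3 counts in any library.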

Additional observations from a re-analysis of the deposited data

How the results depend on the processing

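Of 510 alternative values for the 10 genes, 469 kept their direction and side of the threshold, 36 changed sign and 5 crossed the threshold. They include, for each mutant, the settings that only moved the fold change limit on the main fit, whose values could not change sign. Outside the fits without 1 library, the sign changes were msl-1 (−0.015) and tra (0.028) in CTCF0 and Sxl (−0.067) for Cp190KO with length-adjusted offsets, and mof in CTCF0 (0.037) and roX1 for Cp190KO (0.0025) with library sizes only; all are small against their SE. Leaving out 1 library, log2 fold changes in CTCF0 ranged from −0.15 to 0.72 for roX1, −0.082 to 0.20 for msl-1, −0.18 to 0.19 for msl-3, −0.14 to 0.034 for mof, −0.37 to 0.11 for Sxl, −0.17 to 0.046 for tra and −0.34 to 0.15 for dsx. For Cp190KO they ranged from −0.63 to 0.44 for roX1, −0.081 to 0.72 for msl-1, −0.12 to 0.059 for mle, −0.32 to 0.72 for Sxl and −0.47 to 0.0062 for tra. Differences between mutants ranged from −0.16 to 0.95 for roX1, −0.61 to 0.11 for msl-1, −0.42 to 0.027 for msl-2, −0.041 to 0.30 for msl-3, −0.82 to 0.14 for Sxl and −0.057 to 0.41 for tra.

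DE genes numbered 392 in CTCF0, 440 for Cp190KO (248 higher and 192 lower) and 213 for the difference with DESeq2, 382 in CTCF0 with every gene that had a count, and 366 for Cp190KO in the 12-library fit. Without 1 library they ranged from 90 to 556 in CTCF0 (556 without CTCF0 replicate 2, 90 without WT replicate 1), from 24 to 318 for Cp190KO (24 without WT replicate 3, 71 without Cp190KO replicate 3) and from 69 to 141 for the difference, and members called ranged from 0 to 1 in each mutant. The roX sum difference ranged from −22.0 to 316 CPM in CTCF0 and from −28.7 to 123 CPM for Cp190KO, and the Y sum difference from −7.85 to 3.62 and from −27.0 to 13.6 CPM. The difference in the roX1 to roX2 ratio ranged from −1.79 to 0.61 in CTCF0 and from −7.50 to −5.28 for Cp190KO. The Y sum difference was 0.10 CPM in CTCF0 with library sizes only, and 0.20 and 0.69 CPM without FDY. The roX sum with X minus autosome had r = 0.15 on deviations from group means. The causes were not tested.

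Deviations of same-numbered mutant and WT libraries correlated at −0.54 to −0.20 in CTCF0 and −0.01 to 0.52 for Cp190KO. Those of libraries with different numbers correlated at −0.29 to 0.58 in CTCF0 and −0.42 to 0.42 for Cp190KO. With 3 libraries per group, these values cannot show whether replicate numbers pair the samples. With the replicate block 145, 89 and 60 genes were called in CTCF0, Cp190KO and the difference, and roX2 kept its call (log2 fold change 1.55, adjusted p = 0.0322 by edgeR).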

Other observations

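The small chromosome 4, which has its own chromosome-wide protein Pof, stood apart from the other arms in median change, a comparison chosen after its values were seen. Its 82 tested genes had a median log2 fold change of 0.19 in CTCF0, and 79 genes had 0.42 for Cp190KO, with 78.0% and 91.1% of them above 0 and 0 and 2 DE. In single libraries, the chromosome 4 median minus the autosome median was 0.39, −0.17 and 0.70 in CTCF0, against 0.27, 0.45 and 0.15 in WT, and 0.70, −0.85 and 0.23 in the libraries labelled Cp190KO, against 0.12, −0.23 and −0.03 in their WT. The groups overlapped in both (exact p = 1.0 and 0.9), and the libraries with the lowest values were those with the lowest slope on exonic length. Pof had log2 fold changes of −0.02 (SE 0.15) in CTCF0 and −0.11 (SE 0.16) for Cp190KO.

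Among the listed partners, the proneural gene sc, an X signal element in the embryo, had all mutant libraries above WT in both comparisons, with log2 fold changes of 0.69 (SE 0.30, adjusted p = 0.397) in CTCF0 and 1.17 (SE 0.45, adjusted p = 0.330) for Cp190KO by edgeR, at means of 1.68 and 1.58 CPM, against 1.06 and 0.70 CPM in their WT. Yp3, a female yolk protein gene, had all libraries labelled Cp190KO below WT (log2 fold change −0.94, SE 0.38, adjusted p = 0.354 by edgeR). Among the other listed genes, tra2 and ix had all CTCF0 libraries below WT, and Flacc and Hakai had all libraries labelled Cp190KO below WT. Over all genes tested, 17% in CTCF0 and 20% for Cp190KO had groups apart in either direction. FDY had 4.90% to 5.12% of the vig2 level in CTCF0 and 4.57% to 4.83% in its WT, and 9.76% to 15.1% in the libraries labelled Cp190KO and 9.73% to 12.3% in their WT.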
